A study of Mus musculus with 24 samples.

Results

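Transcript half-lives were estimated in preleukemic cells that lack the terminal uridylyltransferases TUT4 and TUT7, from all 12 cDKO libraries of a 24-library SLAM-seq series. The cells carried floxed Tut4 and Tut7 alleles (Tut4 fl/fl; Tut7 fl/fl) with Vav-iCre, a recombinase expressed from a pan-haematopoietic promoter, and were c-Kit-enriched fetal liver cells of E14.5 mouse embryos transformed with Meis1 and Hoxa9 retroviruses. Label was 2.9 µM 4-thiouridine (4SU), given for 12 h, after which the cells were chased without 4SU for 0, 60, 180 or 540 min, with 3 biological replicates at each time. The other 12 libraries were control cells at the same times, and all cells were grown with SCF, IL-6 and IL-3. The chase time is given as the batch in the labels, so time and batch cannot be told apart.

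SLAM-seq reads labelled RNA as T-to-C conversions: incorporated 4SU is alkylated and then read as C. The conversion rate of a gene was the number of conversions in its 3′ UTR reads divided by the number of reference T positions those reads covered. During the chase, labelled transcripts are lost and unlabelled ones replace them, so the rate falls with the half-life of the transcript. TUT4 and TUT7 add uridines to short poly(A) tails and to precursors of let-7 microRNAs, marking these RNAs for decay. Of 20867 genes in the tables, 9573 had a T coverage of at least 100 in each of the 12 libraries, and 10 of these had no conversion at 0 min. A further 5445 genes were left out because the SD of their 3 normalised 0 min rates was 0.3 or more, which left 4118 genes with a half-life. The values nearest this limit were 0.299901 inside and 0.300008 outside it.

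The libraries held 9601608 to 12824426 filtered reads, and 4380235 to 5712053 reads fell in 3′ UTRs. Of the myeloid markers, Kit ranged from 27.2 to 66.6 CPM (reads in the gene scaled to 1e6 reads in all UTRs), Ctsg from 1320 to 1799 CPM and Ms4a3 from 962 to 1261 CPM. Hoxa9 reached 3377 to 6543 CPM, whereas Meis1 stayed at 0 to 5.26 CPM in its annotated 3′ UTR, a region that a retroviral cDNA need not contain. Of the erythroid markers, Hbb-bt stood at 1300 to 2075 CPM, but Gata1, Klf1, Epor and Hba-a1 did not exceed 4.63 CPM. The T and B cell markers summed to at most 0.529 CPM, and of 4 stromal and endothelial markers only Pecam1, which myeloid cells also express, exceeded 1.59 CPM. Mpo, of the same list, ran from 0.712 to 220 CPM with a median of 9.60 CPM. All 8 myeloid markers had reads, and their sum lay between 3269 and 4249 CPM. In bulk RNA, fewer cells of a type and less RNA per cell cannot be told apart. The summed erythroid markers, almost all Hbb-bt, were highest in replicate 3 (mean of its 4 libraries 2001 CPM, against 1375 and 1520 CPM). So were those of mast cells (91.8 CPM against 68.4 and 75.3 CPM) and of the stromal and endothelial list, almost all Pecam1 (448 CPM against 388 and 295 CPM). The retroviral genes, almost all Hoxa9, were also highest there (5233 CPM against 4162 and 4082 CPM). The erythroid and stromal sums thus describe 1 gene each. The part of this in the results was not tested.

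Tut4 reads were 17.8, 30.2 and 18.6 CPM at 0 min, 31.9, 40.0 and 32.2 CPM at 60 min, 35.6, 33.6 and 34.6 CPM at 180 min, and 26.4, 27.3 and 21.2 CPM at 540 min. Every value lay below the lowest control library, at 68.1 CPM. Tut7 ranged from 16.7 to 33.3 CPM against 34.6 to 66.1 CPM in control libraries. The sources used here do not say whether the deleted exons lie within the intervals counted, so the remaining 3′ reads do not measure intact transcript. These remaining transcripts were short-lived, with half-lives of 73.0 min for Tut4 (replicates 66.3, 84.0 and 70.7 min) and 117 min for Tut7 (86.9, 236 and 72.0 min).

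Sequences are shown first for short-lived transcripts, because AU-rich and Pumilio-type elements in the 3′ UTR are the classical marks of rapid decay. Both were more frequent among short-lived genes here, which also had longer UTRs, and longer UTRs hold more of any motif. The genes shown were chosen because they hold a motif. Each window holds 27 bases of the sense strand of the GENCODE M39 3′ UTR, with the motif in capitals, and the coordinates are of GRCm39. The first set holds the AU-rich heptamer TATTTAT, at its first occurrence in the UTR. Lrp12, Klf10, Runx1 and Mcl1 had half-lives between 51.9 and 97.3 min, and H3f3b and Pfkp, near the median of all genes (241 and 247 min), hold the same heptamer.
Lrp12, chr15:39734392-39734418, minus strand: gctggtttcaTATTTATttgttgtatt
Klf10, chr15:38295165-38295191, minus strand: agtgtcttttTATTTATaggagttttt
Runx1, chr16:92401987-92402013, minus strand: aatccctagaTATTTATgtatcttgat
Mcl1, chr3:95568194-95568220, plus strand: aaaacatgtgTATTTATgaaggtggac
H3f3b, chr11:115913477-115913503, minus strand: acggggatttTATTTATaagggctcta
Pfkp, chr13:6631408-6631434, minus strand: gtaacatagtTATTTATcagcacttta
The second set holds TGTANAT, the core bound by Pumilio proteins. Zfp946, Cdc42ep4 and Mlxip, among the 9 shortest-lived genes described below, hold neither motif. The 3 short-lived genes shown have UTRs that held TGTANAT 4 to 7 times and held no TATTTAT.
Fcho2, chr13:98861691-98861717, minus strand: attaataaagTGTAAATggtgttttat
Ireb2, chr9:54817132-54817158, plus strand: cgtccatggaTGTAAATgataatgaat
Fnip1, chr11:54406944-54406970, plus strand: ccatcccaagTGTACATatgtatctat

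Half-lives in cDKO cells had a median of 247 min, and the medians of the single replicates were 253, 258 and 231 min (mean 247 ± 14.6, SD, n = 3). The interquartile range was 151 to 383 min, and the shortest 10% lay below 102 min and the longest 10% above 678 min. Half-lives longer than the 540 min chase were extrapolated and concerned 588 genes (14.3%), and 38 genes reached the upper bound of the fit, 10000 min. The fall of the conversion rate was tested by edgeR's quasi-likelihood test on conversion counts, with T coverage as the offset. After Benjamini-Hochberg adjustment at 0.05, the rate fell in 7841 of 8469 genes tested (92.6%) and rose in 1, 5730408K05Rik. Without the 540 min libraries 2904 genes were called.

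**Figure D1:**
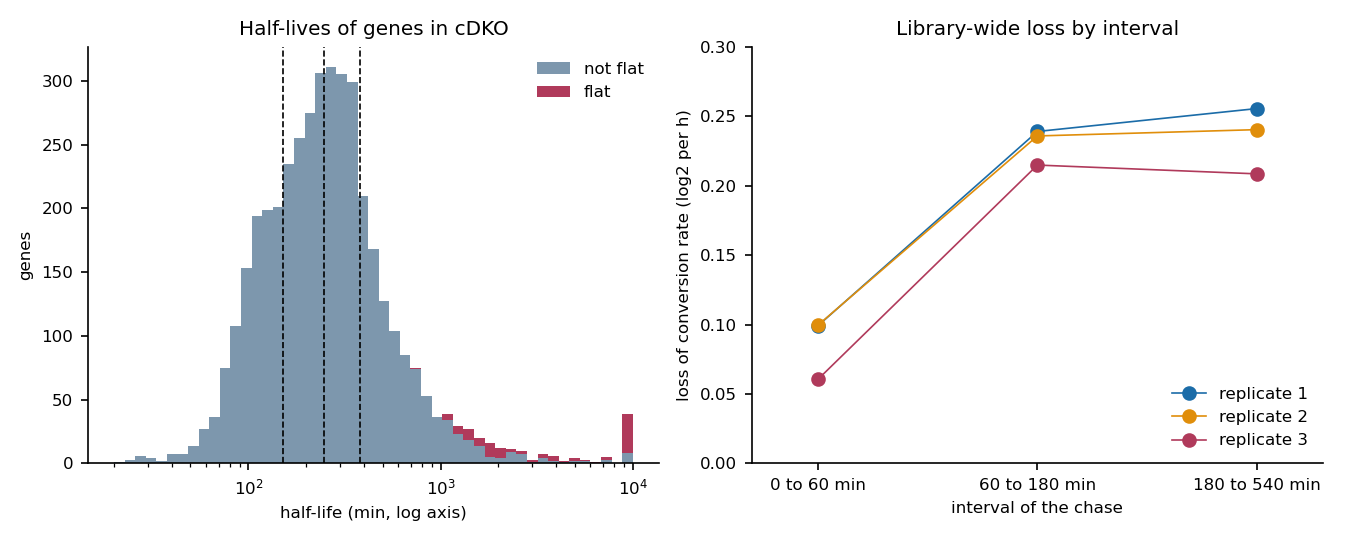
Left, histogram of half-lives of the 4118 genes in cDKO (log axis, min), with flat genes in red, genes outside 20 to 10000 min drawn at the edges, and dashed lines at the limits of the interquartile range and the median. Right, loss of the library-wide conversion rate (log2 per h) in each interval of the chase, 1 line per replicate: in all 3 replicates the loss in the first hour lay below that of both later intervals.

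The loss was slow in the first hour. Library-wide conversion rates at 0 min were 0.821%, 0.845% and 0.542% in replicates 1 to 3, at 60 min 0.767%, 0.789% and 0.520%, at 180 min 0.550%, 0.569% and 0.386%, and at 540 min 0.190%, 0.209% and 0.162%. Replicate 3 was lowest at every time. The rate fell by 0.0864 ± 0.0224 log2 per h in the first hour, by 0.230 ± 0.0131 between 60 and 180 min, and by 0.235 ± 0.0240 between 180 and 540 min (mean ± SD, n = 3). The first hour and the last interval did not overlap between replicates, with an exact permutation p of 0.1 (two-sided), the smallest that 3 against 3 allows. Over genes with a half-life, the median normalised rate was 0.922 at 60 min, 0.630 at 180 min and 0.144 at 540 min, whereas a single exponential with the median half-life would pass through 0.845, 0.604 and 0.220. At 60 min, 1321 of the 4118 genes (32.1%) had a mean rate above that at 0 min.

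Departure of single genes from 1 exponential depended on the replicate number. Same-numbered libraries deviated together in read counts (log2 CPM). In conversion rates they did so little once the library-wide rate was removed, with correlations of -0.00678 to 0.173. The library-wide rate itself was lowest in replicate 3 at every time, and the test had T coverage alone as the offset. The replicate number entered as a block beside the test without it. Without the block no gene was called by edgeR (985 genes had an unadjusted p under 0.05) and DESeq2 called 28, while with the block edgeR called 1000 of 8469 genes (11.8%), of which 826 lay above the straight log line at 60 min. Among the called genes with a half-life, the 536 above the line had a median half-life of 296 min and the 117 below it one of 96.5 min. Tubb5, a β-tubulin, had the smallest adjusted p with the block (2.5e-13, edgeR; 0.141 without it). Its rates were 0.713%, 0.784% and 0.463% at 0 min, 0.742%, 0.762% and 0.477% at 60 min, 0.647%, 0.636% and 0.445% at 180 min and 0.108%, 0.0696% and 0.0893% at 540 min. The groups at 0 and 60 min overlapped, and the 540 min libraries all lay below the others. The nucleolar protein gene Ncl, the translation factor gene Eif4g2, the corepressor gene Trim28 and the splicing protein gene Sfpq also lay above the line at 60 min, with rates at 180 min of 0.560%, 0.620%, 0.567% and 0.655% and at 540 min of 0.0879%, 0.109%, 0.0531% and 0.107%. Tent5a, a noncanonical poly(A) polymerase gene, lay below the line at 60 min, with rates of 1.00%, 0.661%, 0.285% and 0.190%. The 5 genes with the smallest adjusted p without the block were Diaph1, Cish, Orai1, Ccdc22 and Rnf126, none of them called.

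**Figure D2:**
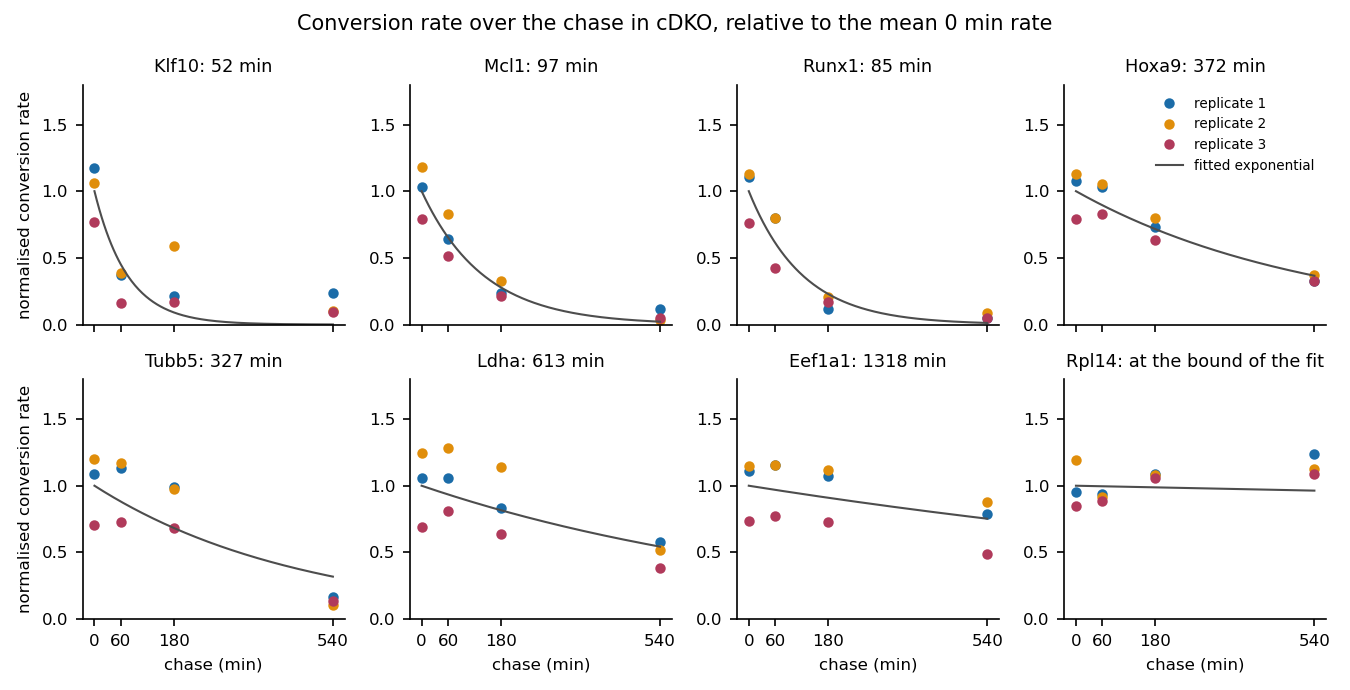
Conversion rate of 8 genes over the chase (x axis, min) divided by the mean 0 min rate (y axis), 1 point per library coloured by replicate, with the fitted single exponential in grey. Mcl1 and Runx1 were near 0 at 540 min, Klf10 scattered between replicates, Tubb5 had all 3 points below the curve at 540 min, and Rpl14 did not fall.

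The shortest-lived genes were chosen among 1939 genes whose lowest library coverage was 1000 or more and which had 200 or more conversions at 0 min, as those within the shortest 10% of every replicate. They numbered 9 and their half-lives ranged from 40.4 to 84.2 min, with 0 min rates of 0.856% to 1.49% and normalised rates at 540 min of 0.0152 to 0.112. Lrp12, a transmembrane receptor gene (interval chr15:39870603-39872014, GRCm38, minus strand), had rates of 1.02%, 1.06% and 0.692% at 0 min, 0.478%, 0.396% and 0.440% at 60 min, 0.0615% to 0.243% at 180 min and 0.0624%, 0.0368% and 0.0535% at 540 min. No library at 60 min reached the lowest at 0 min. Its half-life was 62.6 min (68.2, 50.2 and 71.9 min in the replicates). Ireb2 encodes an iron-responsive RNA-binding protein and had a half-life of 74.6 min (79.8, 81.7 and 57.4 min). Fnip1, a folliculin partner in nutrient signalling, had one of 77.7 min (68.8, 91.6 and 69.4 min). Further members were Fcho2 (67.5 min), an endocytic adaptor, Cdc42ep4 (69.3 min), a Cdc42 effector, Mlxip (76.2 min), a glucose-sensing transcription factor, and Herpud1 (84.2 min), an endoplasmic reticulum stress protein. Zfp946 had the shortest, 40.4 min, but 97.8% of its reads mapped to several places, so its value may mix related zinc-finger genes.

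Regulators of transcription and signalling made up most of the short-lived lists. Of 24 immediate early transcription factor genes, 8 had a half-life, with a median of 104 min. 6 of them fell in the shortest 25% of all genes and 1 in the longest. Klf10 stood at 51.9 min (41.8, 117 and 30.1 min), Ier3 at 58.0 min and Klf6 at 73.3 min, while Junb, an AP-1 subunit, stood at 255 min with a wide spread (537, 171 and 202 min). Among signalling feedback regulators, which dampen the cytokine and kinase pathways that induce them, 12 had a half-life, with a median of 145 min and 6 in the shortest 25%. Of 19 tested, 6 lost conversions faster than the library and 1 slower (edgeR), where over all genes 44% were called faster and 11% slower. With the median log rate as the reference, 3 were faster and 7 slower, beside 1394 and 1894 of 8469 genes. Socs1, an inhibitor of JAK signalling, was the most even of them (68.0 min; 68.7, 63.1 and 78.0 min), and Zfp36, an AU-rich element binding protein, stood at 56.3 min. Zinc-finger Zfp genes had a median of 108 min over 76 genes, 52 of them in the shortest 25% and 4 in the longest. Both Bcl2 family genes with a half-life were short-lived, Mcl1 at 97.3 min (88.7, 105 and 96.9 min) and Bcl2l1 at 116 min (180, 103 and 81.2 min). Without the SD limit 11 genes of this family had a half-life, with a median of 162 min. Of the p53 targets, 3 had a half-life: Mdm2, the ubiquitin ligase of p53, at 101 min, Gtse1 at 124 min and Ei24 at 326 min.

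Myeloid and leukaemia transcription factors were short-lived with few exceptions. Their median was 118 min over 17 genes, 11 in the shortest 25% and none in the longest, beside a median of 247 min for all genes. Runx1, a core haematopoietic factor (interval chr16:92601466-92605654, GRCm38, minus strand), had rates of 1.04%, 1.06% and 0.712% at 0 min, 0.745%, 0.746% and 0.397% at 60 min, 0.111%, 0.196% and 0.160% at 180 min and 0.0481%, 0.0838% and 0.0469% at 540 min. The 180 and 540 min libraries lay below every earlier one, and the half-life was 84.6 min (82.0, 91.5 and 78.3 min). Runx2 (104 min), Gata2 (109 min), Lyl1 (110 min), Cebpa (114 min), Erg (116 min), Lmo2 (118 min), Ikzf1 (126 min) and Myb (148 min) followed. Sox4 (291 min), Spi1 (315 min) and Hoxa9 (372 min) stood apart at the long end. Hoxa9, carried by a retrovirus, had rates of 0.924%, 0.968% and 0.679% at 0 min and 0.281%, 0.317% and 0.278% at 540 min, and replicate half-lives of 330, 353 and 475 min. Retroviral and endogenous Hoxa9 reads cannot be told apart in these counts. Relative to the library-wide loss, 18 of the 24 list genes tested lost conversions faster and 1 slower (edgeR, adjusted p under 0.05), where over all genes 44% were called faster and 11% slower. With the median log rate as the reference in place of the library-wide rate, the counts were 15 and 3 for the list, and 1394 faster and 1894 slower of 8469 genes instead of 3726 and 929.

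Haematopoietic receptors spanned the range, with a median of 153 min over 12 genes, 6 in the shortest 25% and 2 in the longest. Ifnar2, an interferon receptor chain, stood at 84.2 min, Ifngr1 at 113 min, Ccr2, a monocyte chemokine receptor, at 158 min (140, 152 and 193 min), Kit at 192 min and Csf2rb at 282 min (SD of the replicates 16.8 min). Cxcr4 stood at 541 min, and its rate was high throughout, 2.25% at 0 min and 1.33% at 540 min. The longest, Cd34, had 28.6 CPM and replicate half-lives from 1437 to 10000 min. The slower loss of Cd34 relative to the library was not called (adjusted p = 0.376, edgeR).

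Cholesterol genes covered a wide range of half-lives. Of 25 genes, all had enough coverage and 15 had a half-life, with a median of 188 min, 4 in the shortest 25% and 2 in the longest. Of 23 tested, 11 were called faster than the library and 2 slower, beside 44% and 11% of all genes. With the median log rate as the reference, 5 were faster and 4 slower, beside 1394 and 1894 of 8469 genes. The enzyme genes Sc5d (113 min) and Hsd17b7 (141 min) were short-lived. Insig1, which retains the sterol-sensing complex in the endoplasmic reticulum, stood at 188 min (189, 175 and 209 min). Its 0 min rate, 1.75%, was the largest of the list, nearly the same at 60 min (1.74%) and 0.0327% at 540 min. The abundance of Insig1 fell over the chase (log2 change -1.97 at 540 min against 0 min), so this half-life, which assumes steady abundance, is uncertain. Sqle (269 min), Cyp51 (340 min) and Nsdhl (369 min) were longer-lived enzymes, and Srebf2, the transcription factor of the pathway, stood at 538 min (590, 408 and 782 min). Ebp, the sterol isomerase, was flat, with 1.38% at 0 min and 1.14% at 540 min.

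RNA decay genes themselves were mixed, with a median of 212 min over 30 genes, 7 in the shortest 25% and 7 in the longest. The nonsense-mediated decay factor Upf2 (71.6 min) and Tut4 were the shortest, the deadenylase scaffold Cnot1 stood at 241 min, and the Lsm ring subunits Lsm5 (477 min), Lsm6 (521 min), Lsm2 (605 min) and Lsm4 (1497 min) were at the long end. Splicing factors had a median of 328 min over 27 genes and a similar order, with SR protein genes such as Srsf1 (241 min) and Srsf3 (250 min) below small nuclear ribonucleoprotein genes such as Snrpb (497 min) and Snrpe (632 min). Mitosis genes had a median of 226 min over 19 genes, 2 in the shortest 25% and none in the longest, from Aurka at 112 min (123, 91.6 and 136 min) through Bub1b at 226 min (234, 210 and 243 min) to Ube2c at 368 min (366, 346 and 404 min). DNA replication genes had a median of 243 min over 19 genes. The loading factors Cdc6 (77.1 min) and Orc1 (73.8 min) were at the short end, and the helicase subunits Mcm3, Mcm2, Mcm6, Mcm7 and Mcm5 ranged from 243 to 392 min. The replicates of Orc1 gave 150, 87.0 and 32.6 min, over 147 conversions in all. Its faster loss relative to the library was not called (adjusted p = 0.117, edgeR).

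**Figure D3:**
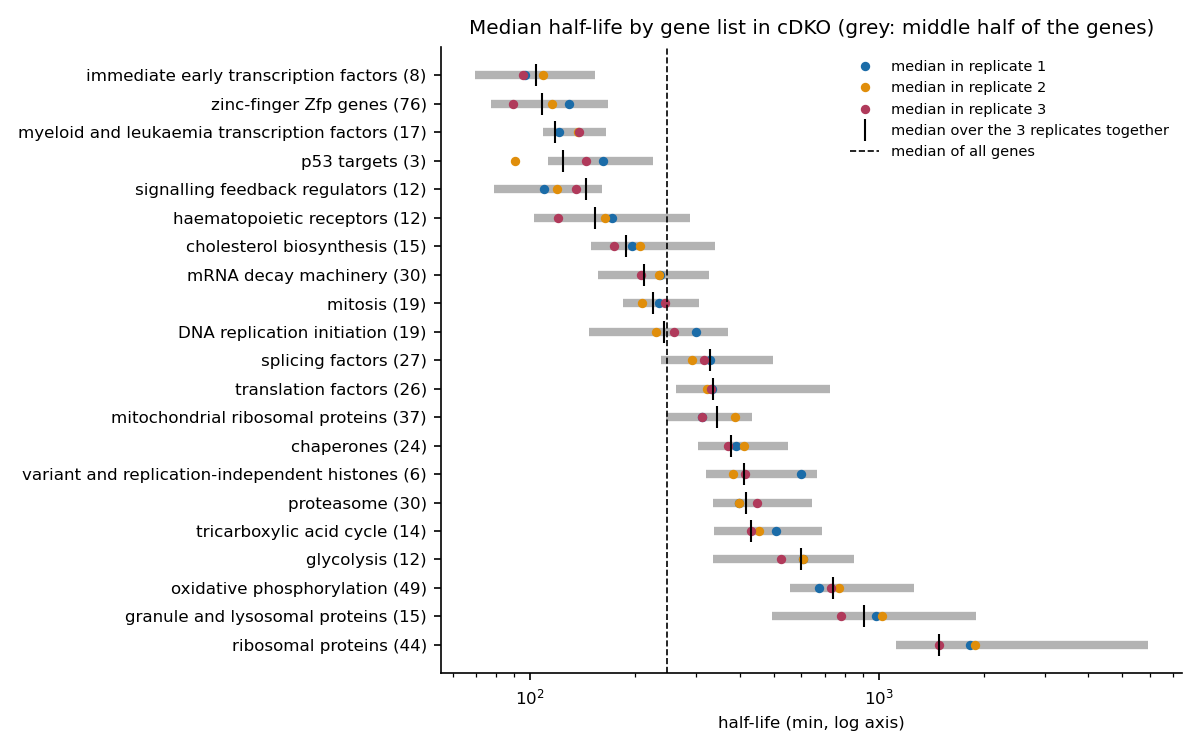
Median half-life (x axis, log, min) of the gene lists with at least 3 genes that had a half-life in cDKO, with the number of genes in brackets. Black ticks are the medians of the fits to the 3 replicates together, coloured points the medians in each replicate, grey bars the interquartile range of the genes and the dashed line the median of all genes, 247 min. Transcription factor and signalling lists lie left of the line, and energy metabolism, granule and ribosomal protein lists right of it.

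Energy metabolism genes were long-lived. Oxidative phosphorylation genes had a median of 741 min over 49 genes, 44 in the longest 25% and none in the shortest, and of 75 tested 61 were called slower than the library and none faster, beside 11% and 44% of all genes. Of 17 glycolysis genes tested 8 were called slower and 5 faster, and of 21 tricarboxylic acid cycle genes 9 and 4. The shortest was Sdhd, a succinate dehydrogenase subunit, at 210 min (218, 169 and 275 min). Glycolysis genes had a median of 598 min over 12 genes, from the phosphofructokinase gene Pfkp at 247 min to the aldolase gene Aldoa at 1086 min and the pyruvate kinase gene Pkm at 1100 min. Ldha, lactate dehydrogenase, had rates of 0.567%, 0.667% and 0.371% at 0 min, 0.566%, 0.685% and 0.433% at 60 min, 0.445%, 0.612% and 0.340% at 180 min and 0.309%, 0.279% and 0.205% at 540 min. Its half-life was 613 min (612, 543 and 783 min). Tricarboxylic acid cycle genes had a median of 431 min over 14 genes, chaperones 378 min over 24, proteasome subunits 417 min over 30, mitochondrial ribosomal proteins 344 min over 37, translation factors 336 min over 26, and variant histones 410 min over 6.

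Granule and lysosomal proteins had a median of 909 min over 15 genes, 12 in the longest 25% and none in the shortest. Elane, neutrophil elastase, was flat with 1.18% at 0 min and 1.38% at 540 min, and its CPM ranged from 13.8 to 169 over the libraries. Prtn3, proteinase 3, stood at 1035 min. Ctsl (187 min) and Npc1 (260 min) were the shortest, the first with replicate values of 432, 123 and 23.4 min. Of the chemokines and cytokines, Mif alone had a half-life (1293 min), and 68.8% of its reads mapped to several places. Without the SD limit 8 genes of this list had one, with a median of 86.5 min, and with scaled replicates the median was 203 min.

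Ribosomal protein genes were the longest-lived list, with a median of 1487 min over 44 genes, all of them in the longest 25%. The replicate medians differed by an SD of 220 min. The shortest was Rpl29 at 421 min (337, 850 and 252 min), with 69.2% of its reads mapping to several places. Of 71 genes tested, 67 were called slower than the library and 1 faster, beside 11% and 44% of all genes. Rps20 had low rates that changed little, 0.217%, 0.224% and 0.161% at 0 min and 0.166%, 0.172% and 0.102% at 540 min. The half-life was 1505 min (1495, 2196 and 1018 min).

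Outside the flat genes, 46 genes lay in the longest 10% of every replicate under the same coverage limits. The 10 longest ranged from 1572 to 5390 min and had normalised rates at 540 min of 0.717 to 0.799. They were the aldehyde dehydrogenase gene Aldh2, the ribosomal protein genes Rps10 and Rps15, the complex I gene Ndufs6, the initiation factor gene Eif3c, the nucleoside diphosphate kinase gene Nme2, the translocon gene Sec61b, the disulfide isomerase gene P4hb, the transcriptional repressor gene Drap1 and the peroxiredoxin gene Prdx1. Their order was not resolved. The standard error of the fit was 13721 min for Aldh2 (5390 min) and 727 min for Drap1 (1614 min), and the replicates of Aldh2 gave 10000, 2783 and 2644 min.

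Flat genes were those with at least 50 conversions, a mean normalised rate of at least 0.7 at 540 min, and a lower 95% limit of the edgeR slope above -0.111 log2 per h. They numbered 98 (2.38% of genes with a half-life), and 27 of them were ribosomal protein genes, of 44 with a half-life. The count was 42 without replicate 1, 45 without replicate 2 and 59 with 0.1% subtracted from each rate. The rule used the rates, so the flatness itself is a description. Flat genes had a median of 479 CPM, against 71.0 CPM for all genes with a half-life, and a gene with many conversions meets the slope limit more easily. The part of abundance in the ribosomal protein count was not tested. Of 181 genes with a normalised rate of at least 0.7 at 540 min, 83 were not flat by the slope or the conversion count. The lowest normalised rate at 540 min among flat genes was 0.707. The 10 with the most conversions, in that order, were Rplp1, Eef1a1, Wdr89, Rplp2-ps1, Ly6c2, Rpl14, Cd63, Rack1, Rps27rt and Rpl41. Wdr89 and the pseudogene Rplp2-ps1 overlap and share reads, so they count 1 signal, with 46.2% of the reads of Wdr89 mapping to several places, as did 94.3% of those of Rpl41, 64.0% of those of Rps27rt and 50.9% of those of Eef1a1. Of the 98, 18 had at least 50% of such reads.

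Rplp1, an acidic ribosomal stalk protein gene, had rates of 0.936%, 1.04% and 0.774% at 0 min, 1.00%, 1.01% and 0.797% at 60 min, 1.09%, 1.04% and 0.919% at 180 min and 1.04%, 1.12% and 0.912% at 540 min. The 4 groups overlapped, and the fit reached its upper bound in all 3 replicates. Eef1a1, elongation factor 1α, lay just within the rule: 0.488%, 0.504% and 0.324% at 0 min against 0.345%, 0.386% and 0.215% at 540 min. Its fall was called (slope -0.06 log2 per h, adjusted p = 0.0222, edgeR), as were those of Cd63 and Rps29. The oxidative phosphorylation list held 7 flat genes, Ndufa1, Ndufa3, Ndufa13, Ndufb5, Ndufb7, Cox5b and Atp5g1. The gene with a called rise, 5730408K05Rik, did not move alike in the replicates: its rate went from 0.994% at 0 min to 0.317% at 540 min in replicate 1 and from 0.609% to 1.58% in replicate 3, and replicate 2 was also higher at 540 min than at 0 min (0.710%). DESeq2 called no rise, and edgeR called none without replicate 2 or without replicate 3.

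Flat genes had a lower median rate at 0 min than all genes, but did not all share a low rate. Their median was 0.568%, from 0.232% to 3.48%, beside 0.829% over the 4118 genes with a half-life (interquartile range 0.675% to 0.986%). Of the 98, 35 exceeded the library-wide mean of 0.736%, which itself lay below the median of all genes. Tyrobp, a myeloid signalling adaptor gene, had 3.48% at 0 min and 3.05% at 540 min, and Rpl14 had 2.33%, 2.92% and 2.08% at 0 min and 3.02%, 2.74% and 2.66% at 540 min, with overlapping groups. Alyref2 (3.21%), Pura (2.42%), Chmp2a (2.34%), Shkbp1 (2.33%), Rps27rt (2.20%) and Coro1a (2.07%) also had high rates at 0 min. Replicate 3 was labelled less, and its library-wide 0 min rate was 0.650 times the mean of the other replicates. The same ratio had a median of 0.689 over 1853 genes that were not flat with at least 200 conversions (interquartile range 0.632 to 0.767), and of 0.780 over the flat genes (0.674 to 0.887). All these genes had passed the SD limit on the same 0 min rates, which itself bounds the ratio. In the 8 flat genes with the highest 0 min rates it was 0.966 for Tyrobp, 0.815 for Alyref2, 0.793 for Rpl14, 1.09 for Pura, 1.02 for Chmp2a, 0.941 for Shkbp1, 0.968 for Rps27rt and 0.795 for Coro1a. The 0 min rate in cDKO was 0.455 times that in control for the median gene that was not flat (5th to 95th percentiles 0.380 to 0.561) and 0.499 times for the median flat gene. In the same order it was 1.01 for Tyrobp, 0.885 for Alyref2, 1.02 for Rpl14 and 0.641 for Pura. It was 0.810 for Chmp2a, 0.680 for Shkbp1, 0.711 for Rps27rt and 0.671 for Coro1a. The highest over all flat genes was 1.545, for Hbb-bt, whose control rate was 0.220% at 0 min and 0 at 540 min. The number of control conversions behind the Hbb-bt ratio was not examined. These ratios were not tested.

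**Figure D4:**
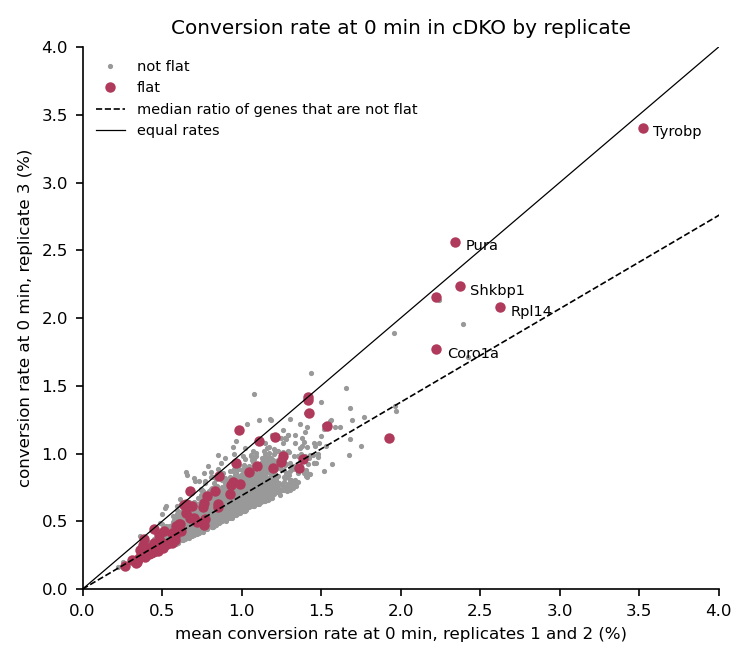
Conversion rate at 0 min (%) in cDKO replicate 3 (y axis) against the mean of replicates 1 and 2 (x axis) for genes with a half-life and at least 200 conversions at 0 min, flat genes in red. The dashed line is the median ratio of genes that are not flat, 0.689, and the solid line marks equal rates; several flat genes with high rates, among them Tyrobp and Pura, lie near the solid line.

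Replicates ranked the genes in a similar order. Spearman's rho over the 4118 genes was 0.726 between replicates 1 and 2, 0.674 between 1 and 3 and 0.687 between 2 and 3, and the median fold difference of a gene's half-life was 1.37, 1.47 and 1.44. These correlations are across genes, which are not independent replicates. The SD filter acts on the same 0 min rates that enter the half-lives. Without it, 9563 genes had a half-life, and rho averaged 0.436 over the 9009 with one in every replicate. The filter was harder on cDKO than on control libraries, where 7756 genes were kept. Without replicate 3, 6826 genes were kept with a median of 223 min, and scaling the replicates to the same library-wide 0 min rate kept 5950 genes with a median of 240 min. Genes left out by the SD had a median of 63 conversions at 0 min, against 184 for those kept, and a median half-life of 220 min.

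The spread between replicates followed the number of conversions. The median SD of the log2 half-life was 1.09 for 523 genes with under 50 conversions at 0 min, 0.70 for 698 genes with 50 to under 100, 0.37 for 915 genes with 200 to under 400 and 0.22 for 427 genes with 800 or more, and rho rose from 0.465 to 0.926 over the same classes. Half-lives were also longer in the classes with more conversions, with medians of 219 min in the first and 354 min in the last. Over the 3712 genes with a half-life in both genotypes, the median SD was 0.43 in cDKO with a median of 211 conversions at 0 min, and 0.30 in control with 522.

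**Figure D5:**
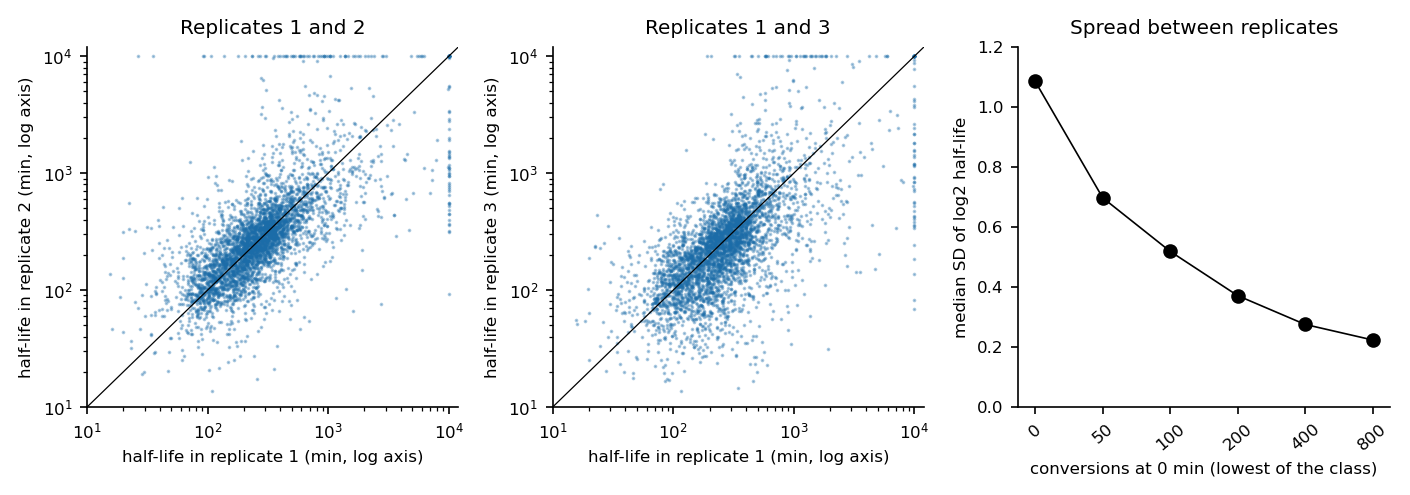
Half-lives (min, log axes) of the 4118 genes in cDKO replicate 1 against replicate 2 (left) and replicate 3 (middle), with the line of equal values, and the median SD of the log2 half-life between replicates by the number of conversions of the gene at 0 min (right). Points at the edge are at the upper bound of the fit, and the SD falls from 1.09 to 0.22 with more conversions.

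Genes chosen as extremes in 1 replicate remained extreme in the others, with less extreme values. The 412 genes in the shortest 10% of replicate 1 had a median of 74.3 min there, and of 106 and 87.8 min in replicates 2 and 3, where all genes had medians of 258 and 231 min. Of them, 44.2% and 35.2% were in the shortest 10% there and 71.8% in the shortest 25% of each. The 412 in the longest 10% went from 1329 min to 930 and 846 min, with 56.3% and 55.3% in the longest 10% again. Chosen in replicate 3, the shortest 10% had a median of 50.4 min there and of 129 and 122 min in the other replicates.

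Half-life went with labelling, abundance and UTR length across genes. In the shortest 25% (median half-life 109 min) the median 0 min rate was 0.990%, the median abundance 38.5 CPM and the median UTR interval 1476 bases, and in the longest 25% (589 min) these were 0.645%, 133 CPM and 475 bases. Spearman's rho of half-life with the 0 min rate was -0.540, with CPM 0.392 and with interval length -0.366. The 0 min rate and the half-life share the same conversion counts.

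A 3′ UTR could be matched to 3970 of the 4118 genes (96.4%). The AU-rich pentamer ATTTA was searched on the sense strand and is contained in the heptamer TATTTAT. The heptamer was in 41.9% of UTRs in the shortest 25%, 33.7% and 23.8% in the following ones and 15.1% in the longest 25%, beside 26.2% of all 17957 UTRs in the annotation. The median half-life fell from 275 min with no TATTTAT over 207 min with 1 and 166 min with 2 to 151 min with 3 or more. TGTANAT was in 64.2% of UTRs in the shortest 25% and 28.0% in the longest, beside 41.3% of all UTRs, and the medians were 301, 230, 196 and 175 min with 0, 1, 2 and 3 or more. Longer UTRs hold more of any motif. Within UTRs of 300 to 1500 bases the medians were 268 min without and 215 min with TATTTAT, and 283 min without and 217 min with TGTANAT.

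The let-7 seed match, added after the data were seen, was examined because TUT4 and TUT7 act on let-7 precursors. The mature sequences, from RefSeq with the GRCm38.p6 build, share the seed in capitals (bases 2 to 8), and its complement in a UTR is CTACCTC.
mmu-let-7a-5p: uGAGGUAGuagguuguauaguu
mmu-let-7g-5p: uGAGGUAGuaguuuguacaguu
mmu-let-7i-5p: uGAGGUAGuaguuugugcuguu
CTACCTC was in 355 of the 3970 UTRs (8.94%, beside 8.93% of all UTRs). Genes holding it had a median half-life of 191 min, against 254 min for the others, but within UTRs of 300 to 1500 bases the medians were 244 and 258 min, a difference smaller than the SD of the replicate medians of the 91 genes (31.5 min).

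Few genes were called for a change of abundance over the chase in the test without the replicate block. With 3 replicates, few calls do not show that abundance was steady. Between 540 and 0 min, edgeR on UTR read counts called 11 of 10235 genes lower (0.107%) and 1 higher (0.00977%), with 1137 genes at an unadjusted p under 0.05. With the replicate block 128 genes were called, DESeq2 called 123, and without replicate 1, 2 or 3 the counts were 0, 2 and 0. Of the 12 genes, 11 had a half-life. Insig1 went from 75.8, 66.2 and 77.8 CPM at 0 min to 18.6, 17.2 and 21.5 CPM at 540 min (log2 change -1.97 ± 0.15, adjusted p = 0.00519, edgeR). All 540 min values lay below all 0 min values. The sterol gene Hmgcs1 (-1.20), the metallothionein genes Mt2 (-1.18) and Mt1 (-0.79), the histone gene H2ac20 (-1.46), the cold-inducible gene Cirbp (-1.18), the nuclear RNA Malat1 (-0.94), Ankrd11 (-0.79), the decapping helicase gene Ddx6 (-0.77) and the pseudogene H2af-ps2 (-1.74) were also lower. Nxpe3 was higher (0.93). Rpph1, the RNA of ribonuclease P, fell most, from 88.4, 126 and 107 CPM to 16.6, 19.4 and 22.4 CPM (log2 change -2.50 ± 0.19, adjusted p = 0.00519, edgeR). It has no poly(A) tail, and its conversion rate, 0.191% at 0 min and 0.212% at 540 min, rested on 65 conversions in all and gave a half-life at the upper bound.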

How the data were processed

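The authors deposited, for each library, a SlamDunk v0.4.3 table over 3′ UTR intervals of GRCm38 with counts of reads, covered T positions and conversions. The same tables hold the deposited conversion rate as a fraction, which was not used because rates were recomputed from the counts, and the deposited CPM values, used only to recover the total of filtered reads. Overlapping intervals of a gene were reduced to the longest and the rest summed.

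Rates were divided by the mean 0 min rate, and a single exponential was fitted by least squares with half-lives limited to 1 to 10000 min (numpy 2.4.6, pandas 2.3.3, scipy 1.17.1). Conversion counts were tested with edgeR 4.0.16 quasi-likelihood fits in R 4.3.3, with chase hours as slope and log T coverage as offset, over genes covered 100 times or more in every library with 50 conversions or more in total; abundance used UTR read counts with TMM and filterByExpr. DESeq2 1.42.0 was an alternative. The fits were tested on simulated data. Other settings were the coverage and SD limits, background subtraction, other fit forms, the replicate block, and leaving out each replicate or the 540 min libraries. Replicate numbers were taken as pairs because deviations of same-numbered libraries from their group means in log2 CPM correlated at 0.258 to 0.786 (8271 genes), and those of other numbers at -0.718 to 0.037. In the log2 conversion rate after removing the library-wide rate, same-numbered libraries correlated at only -0.00678 to 0.173 (2420 genes). The sources call the replicates biological.

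Named genes were up to 10 shortest- and 10 longest-lived genes within the extreme 10% of every replicate, the 10 flat genes with the most conversions, the shortest, middle and longest member of each list, the 5 genes with the smallest adjusted p for departure, and Tut4 and Tut7. Other genes were named after their values were seen, and members and lists were chosen with earlier results of these data known. Values of some genes are not reported here. Gene symbols came from RefSeq accessions (99.18% of table lines matched). UTR sequences, searched on the sense strand only, were those of the GENCODE M39 coding transcript of GRCm39 nearest in UTR length to the interval. PCR copies without molecular identifiers are not independent molecules.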

Additional observations from a re-analysis of the deposited data

How the results depend on the processing

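Leaving out the SD limit gave 9563 genes, with or without scaling the replicates to the same 0 min rate. Mean replicate rho was 0.436 over the 9009 genes with a half-life in every replicate. Scaling could not change this rho, because each single-replicate fit used its own 0 min rate. The median half-life was 231 min without scaling and 235 min with it. The median half-life was 213 min with the residual rate of short-lived genes subtracted, 193 min with 0.1% subtracted (59 flat genes), 203 min by a log-linear fit, 226 min with a free plateau, 301 min without the 540 min libraries and 201 min fitted from 60 min. Mean rho was 0.729 at a coverage of 1000, 0.663 with scaled replicates, 0.752 by the log-linear fit, 0.504 with a plateau, 0.590 without 540 min and 0.586 from 60 min. Without the 540 min libraries, 2904 genes were called for loss and 2426 for loss relative to the library, and the flat rule gave no value. The replicate block called 1000 genes for departure and 128 for abundance, and DESeq2 called 28 and 123. A library-wide offset, added after the data were seen, called 845 genes. With that offset the test is of departure from the library-wide course times an exponential, not from a single exponential. With the block, flat genes numbered 128. The ratio of longest- to shortest-lived genes in held-out replicates was 9.22, 4.84 without the SD limit and 6.89 when chosen in replicate 3. Leaving out 1 replicate gave 3680 to 6826 genes, medians of 223 to 253 min, 42 to 127 flat genes, rho of 0.657 to 0.684, 0 to 791 departure calls and 0 to 2 abundance calls. The largest gene count and departure count were those without replicate 3. The causes were not tested. Of 149 comparisons of the main results with an alternative, 112 stayed within their limits and 37 moved beyond them. Some of these could not move, so the 112 do not all measure stability. The flat count reused the same rates and slopes under the other fit forms. The replicate block left the single-replicate fits and the mean loss by interval unchanged. A reversal of direction was looked for only in the library-wide loss by interval, where there was none. Half-lives beyond 540 min are extrapolated.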

Other observations

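Among the 38 genes at the upper bound of the fit, 8 were not flat. The endosomal sorting gene Ccdc22 had mean rates of 0.202% at 0 min, 0.866% at 60 min, 0.737% at 180 min and 0.187% at 540 min over 184 conversions in all. The calpain gene Capn1 had 1.19% at 0 min, 1.71% at 180 min and 0.977% at 540 min, over 335 conversions, and the ribosome biogenesis gene Nop14 had 1.83%, 2.61%, 2.11% and 1.82% over 145 conversions. Exoc6b (18 conversions) and Oaz1-ps (47 conversions) rested on few conversions. None of these shapes was tested apart from the departure test, in which edgeR called no gene without the replicate block, DESeq2 called 28, and edgeR called 791 without replicate 3.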
